A study of Mus musculus with 4 samples.

Results

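The genes described here encode the mitochondrial oxidative phosphorylation chain. Members were all gene symbols that begin with mt-, Nduf (without Ndufa4l2), Uqcr, Cox4 to Cox8 or Atp5, which gave 102 of the 32285 genes in the files. Of these, 13 lie on the mitochondrial genome and 89 in the nucleus. The nuclear members comprise 37 complex I subunits, 8 complex I assembly factors, 8 complex III subunits, 12 complex IV subunits, 7 complex IV isoforms known from muscle, testis, lung or other restricted tissues, and 17 ATP synthase subunits or associated genes. Complexes I, III and IV pass electrons to oxygen and pump protons, and ATP synthase uses the proton gradient to make ATP. All but complex II are built from proteins of both genomes, so the mitochondrial and nuclear RNAs must both be supplied. The mitochondrial mRNAs are made and kept inside the organelle, whereas the nuclear ones are exported to the cytosol and translated there.

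RNA of single cells was measured in droplets with 5′ chemistry in untreated C57BL/6J mice that carried orthotopic pancreatic tumours of the KPC lines KPC-4545 (replicate 1) or KPC-3403 (replicate 2), collected on day 13. KPC lines come from a mouse model of pancreatic cancer, and the labels give no alleles, age or sex. From each line 1 library was made from the whole suspension and 1 after a sort that removed cells bearing CD45 (leukocytes), EPCAM (epithelium), TER119 (erythroid cells) or CD31 (endothelium), called enriched. The labels do not say whether the libraries came from separate animals, and each p-value therefore reflects library-to-library spread that may be technical. Total UMIs, the unique molecules counted, were 47207893 in enriched KPC-4545 and 51450719 in enriched KPC-3403, against 5746733 in whole KPC-4545 and 13990046 in whole KPC-3403. In the same order, 1399, 2474, 524 and 1078 cells were kept, with median depths of 14425, 16279.5, 3598.5 and 4177.5 UMIs.

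Some libraries stood apart before any comparison. Enriched KPC-4545 and whole KPC-3403 shared 151 barcodes of at least 500 UMIs (7.84% of the smaller set), against 6 to 22 for the other pairs, and the shallower copy of a shared barcode was removed. Enriched KPC-4545 held 1224 barcodes with over 20% mt- UMIs and at least 250 genes, against 210 in enriched KPC-3403, 27 in whole KPC-3403 and 11 in whole KPC-4545. Cell classes were rebuilt here from marker genes without using any member, and each class name means cells like that type. The clusters called epithelial or tumour-like had 5 to 8 of their 9 markers detected but none among their 10 leading genes. The mean log2 difference of these markers from the other clusters was positive only in clusters 6 (0.88) and 8 (2.38). It was negative in clusters 2 (-0.068), 20 (-0.74), 14 (-0.81), 24 (-1.10), 1 (-1.12) and 17 (-1.29). Cluster 1 held 514 of the enriched KPC-4545 cells, so the class name there rests on marker detection and not on raised markers. The enriched libraries, although sorted against EPCAM, held 829 (KPC-4545) and 703 (KPC-3403) such cells, and fibroblast-like cells numbered 54 and 1401.

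Short sequences show the 2 genomes side by side. The mitochondrial members lie on 1 compact chromosome, where mt-Atp8 and mt-Atp6, the mitochondrial subunits of ATP synthase, overlap by 43 bases at chrM:7927-7969 (GRCm38, + strand). UMIs from the overlap cannot be assigned to 1 of the 2 genes, and mt-Atp8 has 161 of its 204 bases outside it. Capitals mark the start codon of mt-Atp6 and the stop codon of mt-Atp8.
mt-Atp8 and mt-Atp6 overlap: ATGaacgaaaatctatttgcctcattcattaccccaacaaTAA
Nuclear members have a promoter each, and 72 of the 89 matched a RefSeq promoter of GRCm38.p6, from 250 bases before to 50 after the start. NRF1 and the ETS-family factor GABP are textbook regulators of respiratory genes. The NRF1 core GCATGCGC, searched on both strands, was in 11 of the 72 members (15.3%) and in 3.05% of 27025 genes. The ETS core CCGGAAG, searched likewise, was in 17 (23.6%) and in 9.93% of genes. Atp5k, Cox6a1, Atp5l and Uqcr11 held both, and 2 of these are printed because their values recur below, with the matched letters of either strand in capitals. In Atp5k the matches to the NRF1 core on the 2 strands overlap each other. Atp5k (subunit e of ATP synthase, which joins its dimers) lies at chr5:108434350-108434649 (- strand), and Uqcr11 (a small subunit of complex III) at chr10:80406772-80407071 (- strand).
Atp5k promoter: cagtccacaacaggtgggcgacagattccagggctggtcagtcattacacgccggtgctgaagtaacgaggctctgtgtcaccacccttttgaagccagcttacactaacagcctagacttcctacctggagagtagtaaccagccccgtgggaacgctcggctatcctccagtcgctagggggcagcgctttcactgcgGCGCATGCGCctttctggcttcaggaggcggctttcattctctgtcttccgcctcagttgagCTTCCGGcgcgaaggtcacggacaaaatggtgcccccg
Uqcr11 promoter: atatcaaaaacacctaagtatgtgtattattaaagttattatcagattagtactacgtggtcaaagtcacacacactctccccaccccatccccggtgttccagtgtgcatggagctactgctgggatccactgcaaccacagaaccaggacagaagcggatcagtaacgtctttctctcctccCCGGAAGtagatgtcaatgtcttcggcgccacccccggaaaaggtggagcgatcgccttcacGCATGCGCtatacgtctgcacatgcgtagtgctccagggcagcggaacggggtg
A letter match is a description of the sequence and not a measured site.

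In cells, nuclear members took a similar part of the RNA in all 4 libraries. After the sort they gave 268 (KPC-4545) and 255 (KPC-3403) of every 10000 non-mitochondrial UMIs, and without it 264 and 245. The mt- genes gave 2.80% and 2.18% of all UMIs after the sort, and 3.34% and 2.53% without it, in the same order of lines. Within each line the whole library had more mt- UMIs per nuclear member UMI, 1.31 against 1.08 in KPC-4545 and 1.06 against 0.87 in KPC-3403, but the 2 preparations overlapped. Within each line the mt- share was also lower, and the nuclear level higher, after the sort. The preparations differed by -0.45 percentage points in the mt- share, by 6.91 per 10000 in the nuclear level and by -0.28 in the log2 ratio (enriched minus whole; two-sided exact permutation test, p = 0.667 each; n = 2 against 2, where the smallest possible p is 0.33 and the line is not used). With the barcodes over 20% mt- UMIs included, the difference in the mt- share became 1.40 percentage points and that of the ratio 0.39.

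The nuclear members with the highest mean CPM of their complex had levels of the same order in all libraries. Cox8a, a small complex IV subunit, was at 1302 and 1068 CPM (UMIs per 1000000 UMIs of the cells, not divided by length) in enriched KPC-4545 and KPC-3403 and at 1360 and 1223 in the whole libraries. Cox4i1, the regulatory subunit of complex IV, was at 966 and 900 against 863 and 909. Atp5e, the epsilon subunit of ATP synthase, was at 905 and 943 against 1219 and 1050. The whole libraries had the higher values of Cox8a and Atp5e within each line, while Cox4i1 overlapped. In complex I, Ndufa13 was at 599 and 532 CPM in the enriched and at 500.2 and 480 in the whole libraries, with no overlap. In complex III, Uqcrh (the hinge protein) was at 366 and 516 against 621 and 566. The remaining genes with the highest mean CPM of their complex were Ndufa7, Ndufa2, Uqcrq, Uqcr11, Cox7c, Atp5g2 and Atp5g3, with 316 to 946 CPM in any library.

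Cell classes differed in the balance of mitochondrial and nuclear members. Among the whole libraries, B or plasma-like cells had 1.99 (KPC-4545) and 1.74 (KPC-3403) mt- UMIs per nuclear member UMI. T-like cells had 1.25 and 1.24, natural killer (NK)-like cells 1.10 and 1.09, and epithelial or tumour-like cells 1.37 and 1.07. Macrophage or monocyte-like cells were lower at 0.80 and 0.84, and neutrophil-like cells lowest at 0.53 and 0.42. B or plasma-like cells thus lay above, and neutrophil-like cells below, every other class with 20 or more cells in both whole libraries in this ratio, while the values of NK-like and epithelial or tumour-like cells overlapped. In the enriched KPC-3403 library 23 neutrophil-like cells had 0.98, above both whole libraries. The nuclear level had another order. It was 345 and 314 per 10000 in macrophage or monocyte-like cells (KPC-4545, then KPC-3403), 317 and 270 in epithelial or tumour-like cells, 200 and 170 in B or plasma-like cells and 202 and 153 in neutrophil-like cells.

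**Figure D1:**
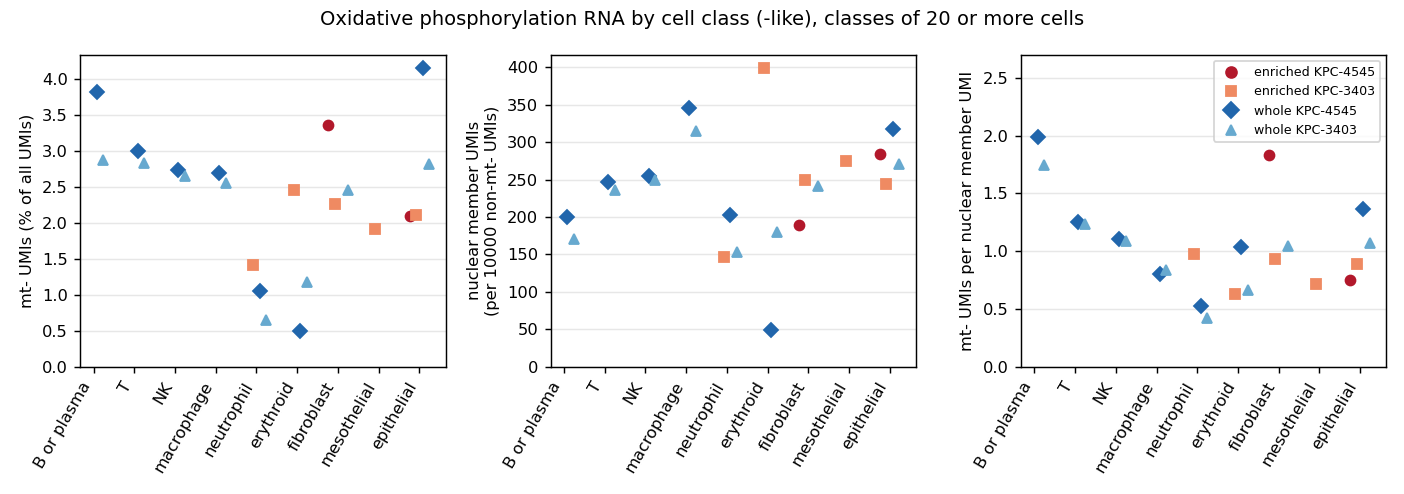
Each point is 1 library's class of 20 or more cells, with the mt- share of UMIs (percent), the nuclear member UMIs per 10000 non-mitochondrial UMIs and their ratio on the vertical axes. The ratio was 1.99 and 1.74 in B or plasma-like cells and 0.53 and 0.42 in neutrophil-like cells of the whole libraries.

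Differences between classes were tested on sums over the cells of each class in the 2 whole libraries, each class against the mean of the other 6 (edgeR's quasi-likelihood test, Benjamini-Hochberg adjusted p under 0.05). Of 8467 genes tested, 93 were members. Neutrophils carry few mitochondria and rely on glycolysis as textbook background. In neutrophil-like cells all 13 mt- genes were lower, with a median log2 difference of -1.57 against -0.21 for all genes. In all, 22 members were lower and 0 higher, where 7.71% of all genes were lower and 15.4% higher; DESeq2 called 21 lower and 4 higher, and 28 members had an unadjusted p under 0.05. The lowest p was that of mt-Nd3, a complex I subunit (log2 difference -2.15, SE 0.42, adjusted p 3.42e-05). Of the 80 nuclear members 9 were lower, with a median of -0.42. Among them were the assembly factor Ndufaf4 (-3.34, SE 1.00, adjusted p 0.0084), the core complex I subunit Ndufs3 (-1.42, SE 0.45, adjusted p 0.014) and Atp5a1, the alpha subunit of ATP synthase (-1.28, SE 0.36, adjusted p 0.0052). Taken alone and without scaling factors, the 13 mt- genes were lower in either whole library, with medians of -1.06 (KPC-4545) and -1.98 (KPC-3403), but the nuclear median was 0.06 in KPC-4545 and -0.67 in KPC-3403. Of 14 glycolysis genes tested 13 were higher in these cells (median 2.24), and of 88 cytosolic ribosomal protein genes 72 were lower (median -1.53).

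B or plasma-like cells had higher mitochondrial members. Of the 13, 7 were higher and the other 6 had positive values, with a median of 0.92 against 0.11 for all genes. The 7 were mt-Nd5 (1.33, SE 0.28, adjusted p 1.48e-04), mt-Nd3 (1.22), mt-Nd2 (1.20), mt-Nd1 (1.15), mt-Cytb (1.07), mt-Nd4l (1.02) and mt-Atp8 (0.92). Most of these are complex I subunits, as are most of the 13 mt- genes. The nuclear members had a median of -0.21, with Ndufaf4 (1.32) and Cox7a2l (0.79), a gene for assembling respiratory supercomplexes, higher and the complex I subunit Ndufb9 (-0.89) lower. In all, 9 members were higher and 1 lower, where 13.6% of all genes were higher and 3.98% lower. In either whole library alone, without scaling factors, all 13 mt- genes had positive differences, with medians of 1.07 (KPC-4545) and 0.81 (KPC-3403). The same held in T-like (0.71 in each), NK-like (0.62 and 0.60) and epithelial or tumour-like cells (1.27 and 0.67), so this sign was not particular to B or plasma-like cells. Of 88 cytosolic ribosomal protein genes 32 were higher too, and of 14 glycolysis genes 7 were lower.

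Epithelial or tumour-like cells were higher in members of both genomes. Of 13 mt- genes 8 were higher (median 0.84), and of 80 nuclear members 22 were higher and 2 lower (median 0.38, against 0.31 for all genes). Across members 30 were higher and 2 lower, beside 31.2% of all genes higher and 9.12% lower, so the count was near the background. Complex I, whose subunits are 37 of the 89 nuclear members, supplied 14 of the 22. Among them were Ndufc1 (1.14, SE 0.27, adjusted p 2.97e-04), Ndufa7 (1.05) and the core subunit Ndufv1 (0.94), and complex III supplied Uqcr11 (1.08). The subunit Ndufa1 (-0.87) and the assembly factor Ndufaf3 (-0.83) were lower. Of 14 glycolysis genes 12 were higher (median 1.61), and of 76 mitochondrial ribosomal protein genes 40.

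In macrophage or monocyte-like cells 9 of 93 members were higher, all nuclear, a smaller share than the 18.0% of all genes. They were Ndufc2 (1.02), Ndufc1 (0.98), Ndufab1 (0.96), Ndufs5 (0.83), Ndufb1-ps (0.85) and Ndufb8 (0.79) of complex I, Uqcr11 (0.96), Cox5a (1.04) and Atp5g1 (0.95), and 0 were lower, where 2.48% of all genes were lower. The nuclear median was 0.46 against 0.22 for all genes, 77 of 80 were positive, and the mt- median was 0.16. In single whole libraries without scaling factors the mt- medians were 0.58 (KPC-4545, 13 of 13 positive) and 0.46 (KPC-3403, 11 of 13), and the nuclear ones 0.96 and 0.61. DESeq2 called 19 members higher and 0 lower, and 23 had an unadjusted p under 0.05 in edgeR.

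Few members passed in T-like and NK-like cells. In T-like cells Cox7a2l was higher (0.92, SE 0.28, adjusted p 0.011) and 0 members were lower, where 14.8% of all genes were higher and 1.89% lower; 4 members had an unadjusted p under 0.05, and DESeq2 called 3 higher and 2 lower. In NK-like cells Ndufc1 (-1.27) and Ndufab1 (-1.34), the acyl carrier protein of complex I, were lower and 0 members were higher, where 8.73% of all genes were higher and 2.59% lower; 6 members had an unadjusted p under 0.05, and DESeq2 called 3 lower and 0 higher.

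Erythroid-like cells held 2 clusters with unlike levels. In the whole libraries nuclear members were at 96.5 (KPC-4545) and 241 (KPC-3403) per 10000 in cluster 16. In cluster 23 they were at 21.5 and 31.2. Against the other classes 12 members were lower, 7 of them mt- genes, and 3 higher, where 14.9% of all genes were lower and 13.9% higher. Atp5g2 (-1.48), Ndufb5 (-1.45) and mt-Nd2 (-1.39) were lower and Ndufb9 (1.28), Ndufs1 (1.15) and Cox6a1 (0.84) higher. In whole KPC-4545 alone and without scaling factors the 3 higher ones had negative values (-0.49, -0.47 and -1.10). On that scale all 80 nuclear members were negative there, with a median of -2.36. The TMM factor of that set in the fit was 0.416, so these values and the fitted ones are on unlike scales. Haemoglobin took 71.5% of UMIs in the whole KPC-4545 class and 41.6% in whole KPC-3403. With haemoglobin UMIs left out, nuclear members were at 173 and 310 per 10000, and at 400.4 in 45 erythroid-like cells of enriched KPC-3403, whose haemoglobin share was 0.290%. Of these 45 cells 44 lay in cluster 16, against 10 of 24 in whole KPC-4545 and 54 of 82 in whole KPC-3403. In cluster 16 alone, without haemoglobin UMIs, nuclear members were at 189 (whole KPC-4545), 330 (whole KPC-3403) and 402 (enriched KPC-3403). The part of haemoglobin and of the mix of clusters in these differences was not tested.

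Median differences of all genes shifted by over 0.1 between TMM and RLE scaling in 3 classes, from -0.21 to 0.00 in neutrophil-like, from -0.51 to -0.70 in erythroid-like and from -0.09 to 0.04 in NK-like cells. The mt- medians kept their sign under RLE scaling in every class, and the nuclear median of erythroid-like cells went from 0.03 to -0.09. In neutrophil-like cells 19 members were lower and 2 higher under RLE scaling.

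The tissue-type isoforms of complex IV were rare and unevenly spread. Cox4i2, which replaces Cox4i1 in lung and under low oxygen, was found mainly in fibroblast-like cells, at 2.75 CPM (61 UMIs) in enriched KPC-3403 and 17.9 CPM (16 UMIs) in whole KPC-3403. In enriched KPC-3403, 27 of 33 cells with a Cox4i2 UMI also held Ndufa4l2, a hypoxia-linked gene, against 13.4% of the other cells. In whole KPC-3403, 4 of 11 such cells did, against 1.31% of the others. Of the 33 cells 31 held the fibroblast marker Col1a1, against 70.3% of the other cells. Ndufa4l2 was itself a leading gene of fibroblast-like cluster 5, so these contrasts do not hold the cell class constant. Cox6b2, the testis-type form, was at 17.7 CPM in fibroblast-like, 27.6 in mesothelial-like and 204 in erythroid-like cells of enriched KPC-3403. In whole KPC-3403 it was at 95.3 CPM in erythroid-like cells. It was seen in 176 of 771 cells of a fibroblast-like cluster and in 2 of 352 and 1 of 258 cells of the main epithelial or tumour-like clusters of the same library, where median depths were 16875 UMIs in the first and 12669.5 and 21948.5 in the others. Cox6a2, the heart and muscle form, had 77 UMIs in 5 macrophage or monocyte-like cells of whole KPC-3403. Of the 7 cells of that library with Cox6a2, 5 held Siglech, a gene of plasmacytoid dendritic cells, and 0 of the other 1071 did. Of the same 7 cells 0 held the macrophage marker Csf1r, against 6.26% of the others, so the class name may not hold for them. In enriched KPC-3403, 0 of 8 cells with Cox6a2 held Siglech, as did 0 of the other 2466. Cox7a1, another muscle-type form, was at 6.21 CPM (enriched KPC-4545), 8.40 (enriched KPC-3403), 7.91 (whole KPC-4545) and 11.1 (whole KPC-3403) in epithelial or tumour-like cells, against 2.25 (50 UMIs) in fibroblast-like cells of enriched KPC-3403. Cox8b and Cox8c had 3 and 2 UMIs, all in enriched KPC-3403, and Cox7b2 had 0. Ndufa4l2 and Siglech were chosen after their values had been seen, and the isoform values were not tested between classes.

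**Figure D2:**
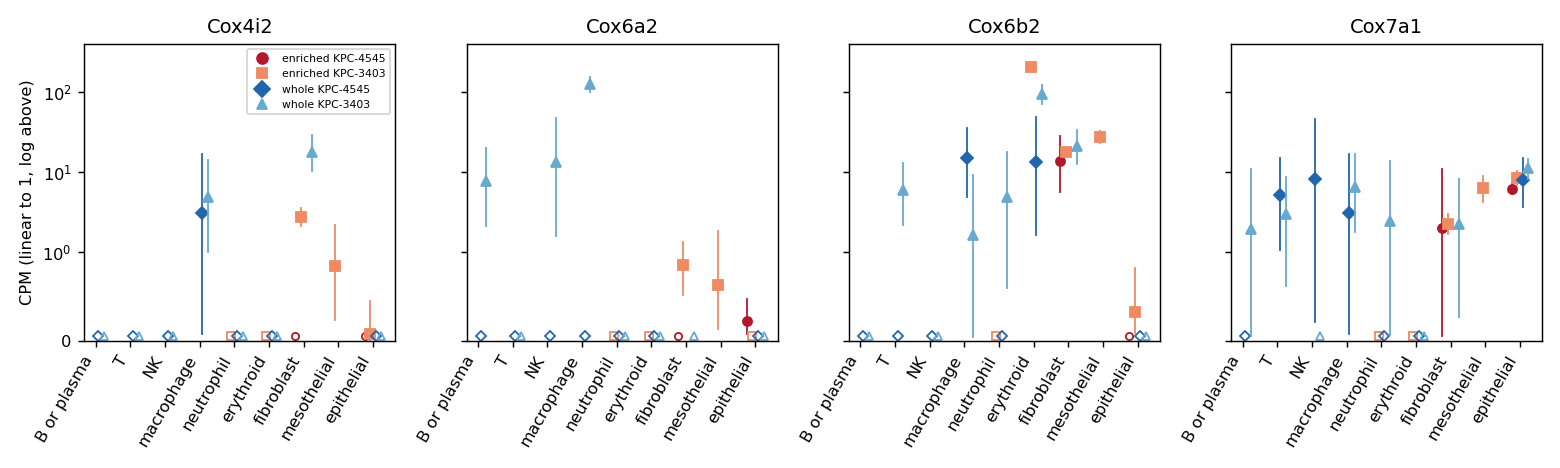
CPM of 4 tissue-type isoforms by class and library, on an axis that is linear to 1 and logarithmic above, with exact Poisson 95% intervals for counting error; open symbols mark 0 UMIs. Cox6b2 reached 204 CPM in erythroid-like cells of enriched KPC-3403, and Cox7a1 was present in epithelial or tumour-like cells of all 4 libraries.

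No member passed between the preparations when all cells were summed. Of 15107 genes tested 0 passed in edgeR (0.0%), as did 0 of 99 members, with 2445 genes and 4 members at an unadjusted p under 0.05, and DESeq2 called 4 members. The mt- median was -0.41, the nuclear one 0.18 and that of all genes 0.02 (log2, enriched minus whole). The values of these 4 members by library follow. For mt-Nd3, levels were 168 and 137 CPM in enriched KPC-4545 and KPC-3403, against 555 and 392 in whole KPC-4545 and KPC-3403 (log2 difference -1.63, SE 0.29, adjusted p 0.155 in edgeR). For Atp5k they were 124 and 115 against 397 and 272 (-1.47, SE 0.31, adjusted p 0.177). For Ndufb1-ps, whose symbol marks a pseudogene of a small complex I subunit, they were 132 and 142 against 488 and 310 (-1.52, SE 0.36, adjusted p 0.196). All 3 genes were lower in both enriched libraries than in either whole one, with no overlap. For mt-Atp8 they were 1775 and 209 against 503 and 70.7 (1.68, SE 0.27, adjusted p 0.140), so that the preparations overlapped but it was higher in the enriched library of each line, with log2 differences of 1.82 in KPC-4545 and 1.56 in KPC-3403. Without enriched KPC-4545 its fitted difference was -0.41, from a fit that had to drop the line term and so compares the lines as well.

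The same 4 members were then compared as shares within each kind of cell. They had been chosen by their p between preparations in sums of these same cells. The class-by-library sets are parts of 4 libraries and not replicates, so the shares are a description and not a further test. As a share of nuclear member UMIs, Atp5k ranged from 0.449% to 0.704% over 7 class-by-library sets of the enriched libraries and from 1.03% to 1.74% over 15 sets of the whole libraries, with no overlap. In free RNA of near-empty barcodes it was 0.404% and 0.490% in the enriched and 0.907% and 1.03% in the whole libraries. Ndufb1-ps ranged from 0.475% to 1.41% against 0.945% to 3.09%, and mt-Nd3 from 0.309% to 0.753% against 0.533% to 2.15% of mt- UMIs, so both ranges overlapped. The share of mt-Atp8 in cells was 6.33% of mt- UMIs in enriched KPC-4545 and 0.96% in enriched KPC-3403. In cells of the whole libraries it was 1.51% and 0.28%, in the same order of lines. In free RNA it was 5.752% and 2.702% in the enriched and 4.315% and 2.113% in the whole libraries. Within each line the preparations thus differed less in free RNA than in cells. The mt-Atp8 share of free RNA was above that of cells in every library but enriched KPC-4545. Other mt- genes also differed in their median share: mt-Co3 had 11.5% over enriched and 15.2% over whole sets, mt-Cytb 11.7% and 8.32%, and mt-Nd1 3.64% and 5.12%, each with overlapping ranges. The medians of mt-Co1, the catalytic subunit of complex IV, were 22.6% and 21.6%, and those of mt-Co2 15.3% and 15.4%. Annotated lengths are 204 bases for mt-Atp8, 348 for mt-Nd3, 371 for Atp5k and 861 for the longest transcript of Ndufb1-ps, which the annotation lists as a non-coding RNA. Over the 85 nuclear members tested that have a protein-coding transcript, which leaves out Ndufb1-ps, length and the log2 difference between preparations had a Spearman correlation of 0.34 as a description, against -0.051 over 13720 genes; members share libraries and depth, and the part of length was not tested.

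**Figure D3:**
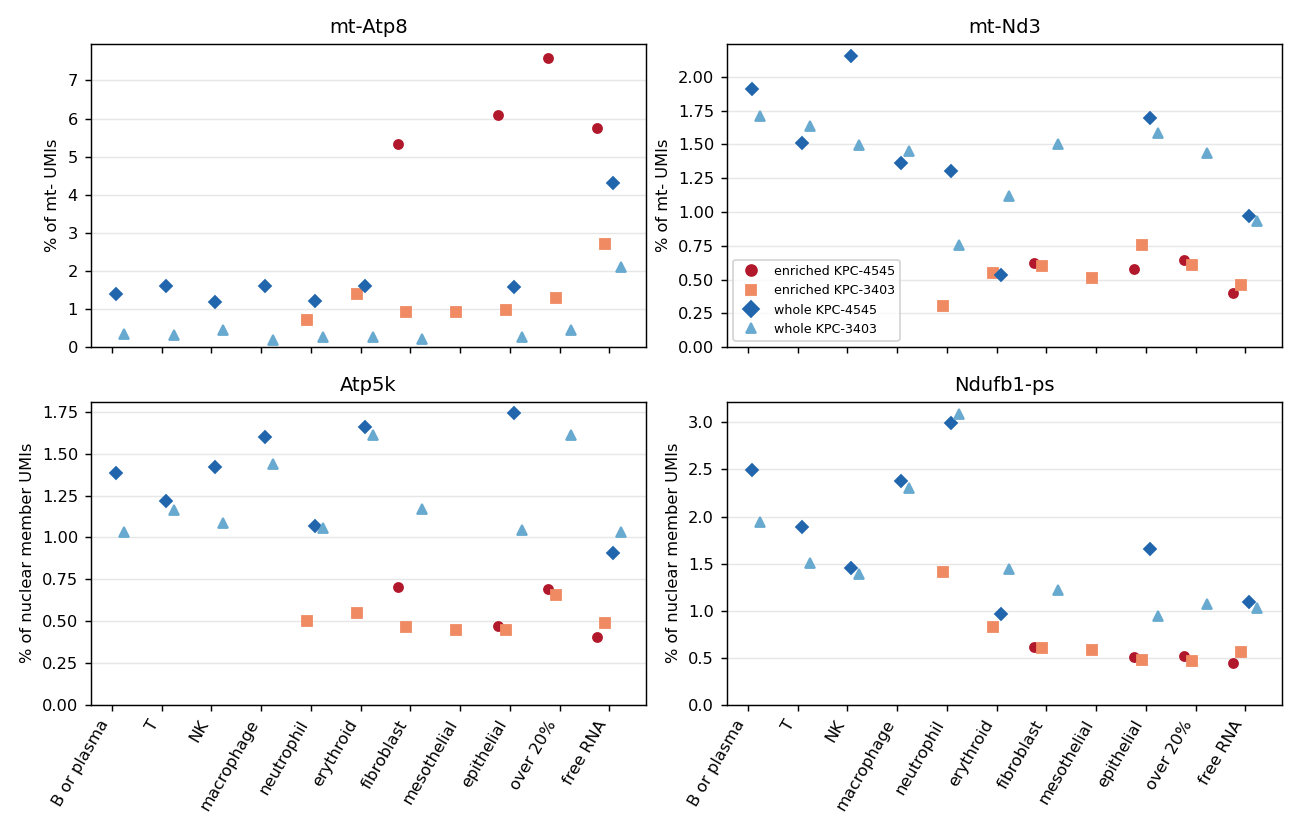
Shares of the mt- or nuclear member UMIs (percent) taken by 4 genes, by class, in barcodes over 20% mt- UMIs and in free RNA. Each point is 1 set of 1 library, and the genes were chosen by their p between preparations in the same cells. For Atp5k all enriched sets of cells lie at or below 0.704% and all whole sets at or above 1.03%.

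Epithelial or tumour-like cells were present in all libraries, which holds the class name, though not the clusters, constant between preparations. Their mt- share was 2.10% and 2.11% after the sort and 4.16% and 2.82% without it. The means differed by -1.38 percentage points, without overlap (two-sided exact permutation test, p = 0.33, the smallest possible; n = 2 against 2). The nuclear level was 284 and 244 against 317 and 270 per 10000, lower after the sort within each line, although the preparations overlapped (difference of means -30.0, exact permutation p = 0.667, a test that does not use the line). In edgeR 0 of 96 members passed (0.0% of 12227 genes tested), with 17 at an unadjusted p under 0.05, and DESeq2 called 6 members. The last 2 counts are given without the share of all genes, so they are not read as an excess. The mt- median was -0.83, with 12 of 13 negative, against -0.09 for nuclear members and 0.02 for all genes. Atp5k (-1.74, SE 0.26, adjusted p 0.382) and mt-Nd3 (-2.06, SE 0.34, adjusted p 0.428) had the lowest p. The class was made of different clusters: 514 of the enriched KPC-4545 cells lay in cluster 1, 352 of enriched KPC-3403 in cluster 2, and 35 and 171 of the whole KPC-4545 and KPC-3403 cells in cluster 8, led by Reg1 and Reg3g. Median depth was 31867 and 16122 UMIs in the enriched and 11990 and 12806.5 in the whole libraries, and its part was not tested.

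Nuclear members were lower in barcodes with a higher mitochondrial share, as a description. In enriched KPC-4545 their level was 298 per 10000 non-mitochondrial UMIs at 0.5 to 1% mt- UMIs and 269 at 2 to 5%, then 119 at 5 to 10%, 56.3 at 10 to 15% and 44.9 at 20 to 25%. In enriched KPC-3403 it was 243, 251, 157, 131 and 105 in the same bins. In both libraries most of the decline lay below the 20% limit, and levels above 50% mt- UMIs were higher again, at 147 and 203. In whole KPC-3403 the level was 245 at 5 to 10% and 161 at 10 to 15%, and in whole KPC-4545 it was still 280 at 5 to 10%. From the bin of 2 to 5% to that of 15 to 20%, cytosolic ribosomal protein genes went from 2129 to 343 per 10000 in enriched KPC-4545 and from 2336 to 1023 in enriched KPC-3403. The nuclear-retained RNA Malat1 went from 77.4 to 954 and from 55.7 to 421. In enriched KPC-4545, cluster 4 (343 cells, unnamed, led by Neat1) and cluster 17 (84 cells) made up much of the range from 5 to 20%, with 12.2% and 12% mt- UMIs and nuclear levels of 48.8 and 69.1. Without them the mt- share of that library's cells was 1.82% and the nuclear level 288.

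**Figure D4:**
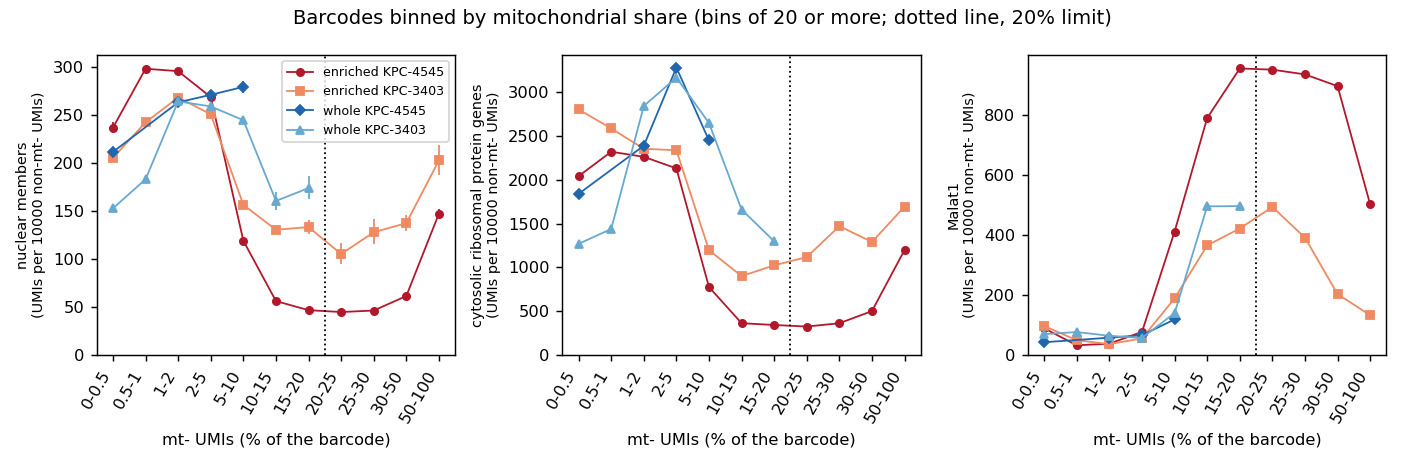
Nuclear members, cytosolic ribosomal protein genes and Malat1 (UMIs per 10000 non-mitochondrial UMIs) against the mt- share of the barcode, in bins of at least 20 barcodes; bars on the first panel are exact 95% counting intervals. Nuclear members of enriched KPC-4545 go from 298 at 0.5 to 1% to 44.9 at 20 to 25%.

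Barcodes over 20% mt- UMIs were then set against cells among non-mitochondrial UMIs. The limit does not use the make-up of these UMIs, although their total enters the mt- share. Unlike cells, these barcodes were not tested against free RNA or screened for doublets. The mt- genes, which set the 2 sides, took 37.8%, 40.9% and 34.7% of UMIs in such barcodes of the enriched KPC-4545, the enriched KPC-3403 and the whole KPC-3403 library, and nuclear members were at 62.6, 142 and 95.8 per 10000. Whole KPC-4545 had only 11 such barcodes and did not enter the fit. Of 84 nuclear members tested 66 were lower and 0 higher, where 11.0% of 11961 genes were lower and 8.37% higher (edgeR, adjusted p under 0.05). The median was -1.86 against 0.01 for all genes, and 83 of 84 values were negative. DESeq2 called 67. This count rested on enriched KPC-4545 and on the library term: it was 0 without that library, 13 without whole KPC-3403, 75 without enriched KPC-3403, 0 without the replicate block, 0 with a limit of 30% and 0 among barcodes nearest to epithelial or tumour-like cells. The nuclear median was still -1.75 without the block and -1.45 at the limit of 30%. Over all genes 1001 were higher and 1319 lower, which became 973 and 1779 with RLE scaling (median of all genes -0.11, of nuclear members -1.94) and 2099 and 892 with no scaling factors (0.36 and -1.45), a setting chosen after seeing the data. With no scaling factors 58 nuclear members were lower and 0 higher. In single libraries, 80 of 81 members with at least 10 UMIs were lower in enriched KPC-4545 (median -2.09), 66 of 72 in enriched KPC-3403 (-0.86) and 9 of 9 in whole KPC-3403 (-1.24).

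Lower members were found in every nuclear complex. All 12 complex IV subunits were lower, 7 of 8 of complex III, 15 of 17 of ATP synthase and 30 of 37 of complex I, but only 2 of 8 complex I assembly factors. Cox4i1 went from 994 to 209 per 1000000 non-mitochondrial UMIs in enriched KPC-4545, from 920 to 494 in enriched KPC-3403 and from 933 to 309 in whole KPC-3403. Atp5g2, a c-ring subunit of ATP synthase, went from 939 to 164, from 876 to 318 and from 702 to 155 (log2 difference -2.48, SE 0.58, adjusted p 0.0025). Both were lower in every library. Ndufa4, a complex IV subunit once assigned to complex I, went from 718 to 133 and from 615 to 296 in the enriched libraries, with 1 UMI left in whole KPC-3403 (-2.47, SE 0.59, adjusted p 0.0030). Uqcrfs1, the Rieske iron-sulfur protein of complex III, had the lowest p (-2.56, SE 0.58, adjusted p 0.0015). Members with smaller, non-passing differences included Atp5a1 (-0.89) and Atp5b (-1.19), the catalytic head of ATP synthase, and the core complex I subunit Ndufs1 (-0.68). Ndufaf4 alone had a positive value (0.28, adjusted p 0.751), and it was -0.42 without enriched KPC-3403.

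**Figure D5:**
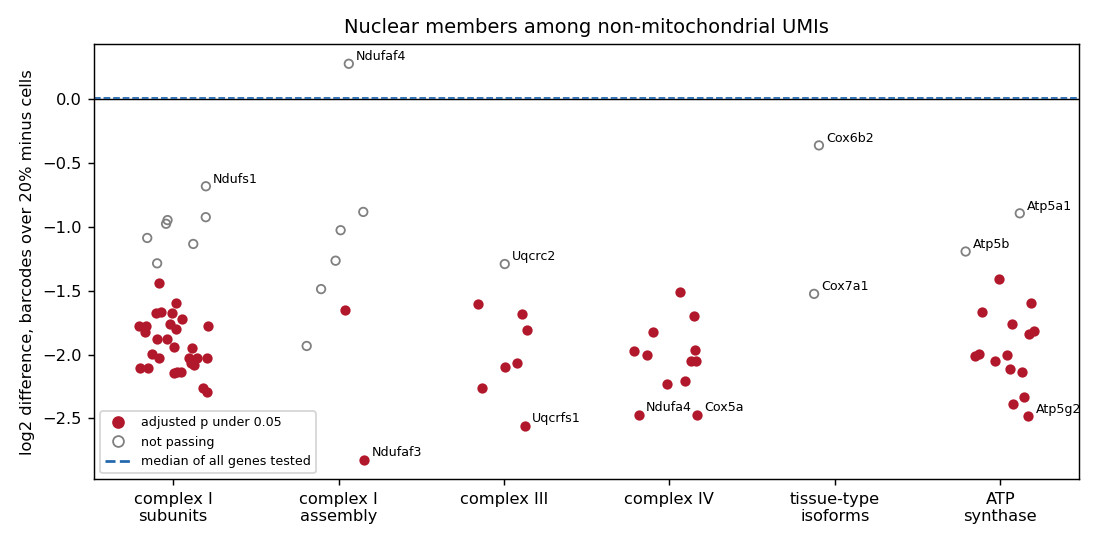
Log2 difference of each nuclear member between barcodes over 20% mt- UMIs and cells, by complex; filled points passed the test and the dashed line is the median of all genes (0.01). The complex IV subunits all passed, and Ndufaf4 is the single positive value.

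Other gene lists differed in how many members were lower in the same barcodes, beside 11.0% of all genes. Cytosolic ribosomal protein genes were lower in 70 of 91 cases (median -1.90), mitochondrial ribosomal protein genes in 40 of 78 (-1.58), and complex II subunits and electron carriers in 5 of 6 (-1.82). Tricarboxylic acid cycle genes were lower in 2 of 15 (-1.06), a share near that of all genes, and glycolysis genes in 6 of 15 (-0.98). All 5 nuclear-retained RNAs were higher (median 2.48), with Malat1 at 877, 276 and 841 per 10000 in barcodes over 20% of the enriched KPC-4545, the enriched KPC-3403 and the whole KPC-3403 library. The nuclear members thus had a median near that of the cytosolic ribosomal protein genes. Over 11487 genes, longer transcripts had higher differences (Spearman correlation 0.59, a description), and over 83 nuclear members it was 0.30; the part of transcript length, of depth (medians of 2641.5, 1256.5 and 1456 UMIs in these barcodes) and of free RNA, where nuclear members were at 174, 235 and 201 per 10000, was not tested.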

How the data were processed

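The data are 4 matrices of UMI counts per gene and barcode as the authors deposited them, not normalized. Reads were counted with Cell Ranger 6.1.1 on mm10, per the submitters' processing notes; per the file headers, the matrices name Cell Ranger 4. Cells needed 500 UMIs, 250 genes, at most 20% mt- UMIs and a profile unlike free RNA (Monte Carlo test, false discovery rate 0.01); doublets were removed by Scrublet score. Clusters (scanpy 1.11.5, leidenalg 0.10.2, resolution 1) were built without the members and named from marker lists; the naming rule was changed after clusters had been seen. The members, gene lists and tests were chosen with earlier results of these data known.

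UMI counts summed per library, class or side were compared by edgeR 4.0.16 in R 4.3.3 (robust quasi-likelihood fit, TMM scaling, low counts removed by filterByExpr), with the line or library as a term, and with DESeq2 1.42.0 as an alternative; p-values were adjusted over all genes, and the code was tested on simulated data. The preparation fit leaves 1 residual degree of freedom. Member counts at an unadjusted p or in DESeq2 are not read as an excess where no share of all genes stands beside them. Replicate numbers are tumour lines; deviations of the KPC-4545 libraries correlated at 0.27 over 8546 genes. Intervals (Clopper-Pearson, Poisson, 95%) cover counting error only. Named members are all mt- genes, per complex the 3 nuclear members with the highest mean CPM, the tissue-type isoforms, Ndufa4, and per test up to 5 members per direction with the smallest p; other members named by value were chosen after their values were seen. Gene positions and lengths are those of GRCm38, the assembly also called mm10. Promoters are from RefSeq. Alternatives are in the closing section. Values of 1 member are not reported here.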

Additional observations from a re-analysis of the deposited data

Results flagged for a closer look

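Barcodes with under 250 genes entered no comparison of the report. In the enriched libraries mt- genes took a larger share of their UMIs than of those of near-empty barcodes. Barcodes of at least 500 UMIs in under 250 genes are by selection dominated by few genes, and near-empty barcodes had no such limit. The limit itself thus favours high shares of abundant genes, and the contrast is a description. In enriched KPC-4545, 566 barcodes of at least 500 UMIs had under 250 genes, and mt- genes took 75.8% of their UMIs, against 4.39% in free RNA of the library. In enriched KPC-3403, 330 such barcodes had 61.3%, against 0.970% in free RNA. In the whole libraries barcodes with under 250 genes had 1.68% (KPC-4545, 333 barcodes) and 1.91% (KPC-3403, 681 barcodes). The free RNA of these libraries had more, 4.25% and 2.51%. Median depths were 3897 and 2526 UMIs in the whole and 1157.5 and 729 in the enriched libraries. Nuclear members were at 8.72 and 14.4 against 158 and 137 per 10000. Barcodes over 20% mt- UMIs numbered 17 and 35 in the whole libraries, with 87.2% and 75.1% mt- UMIs. In the enriched libraries they numbered 536 and 291, with 77.8% and 68.1%. Of those over 20% mt- UMIs, nuclear members were at 168 and 165 per 10000 non-mitochondrial UMIs in the enriched libraries, against 174 (KPC-4545) and 235 (KPC-3403) in free RNA. In the whole libraries they were at 116 and 114, against 190 and 201 in free RNA.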

How the results depend on the processing

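Over all alternatives, 75 values of the comparisons kept their direction and size, 28 moved and 5 changed sign; of the values of named members 512 kept their call, 31 lost it, 23 gained one and 6 changed sign, and the causes were not tested. Members passing between preparations in all cells numbered 1 with no filter on low counts, 4 in DESeq2 and 0 to 6 with 1 library left out, where mt-Atp8 ranged from -0.41 (without enriched replicate 1) to 3.75. With 3 libraries the line term leaves no residual degree of freedom, so these fits between preparations drop it and mix the lines; the mt-Atp8 values within lines were 1.82 (KPC-4545) and 1.56 (KPC-3403). In epithelial or tumour-like cells they numbered 9, 6 and 0 to 2 in the same order, and mt-Atp8 ranged from -0.77 to 3.10. Between classes, DESeq2 called 24 members in B or plasma-like, 24 in erythroid-like, 19 in macrophage or monocyte-like and 5 in T-like cells. With mt- UMIs left out of library sizes, which removes 13 members from the test, 3, 8 and 10 passed in B or plasma-like, erythroid-like and neutrophil-like cells. With no filter 19, 9 and 0 passed in epithelial or tumour-like, erythroid-like and NK-like cells, and at Leiden resolution 2 14 in epithelial or tumour-like and 5 in macrophage or monocyte-like cells. In erythroid-like cells of single whole libraries, without scaling factors, Ndufb9 ranged from -0.49 to 0.82, Cox6a1 from -1.10 to 0.54 and Ndufs1 from -0.47 to 0.56. The negative values were those of whole KPC-4545. In barcodes over 20%, 0 nuclear members passed without the replicate block, 0 to 75 with 1 library left out, 0 at a limit of 30% and 0 among barcodes nearest to epithelial or tumour-like cells, and Ndufaf4 ranged from -0.42 (without enriched replicate 2) to 0.47. The block changed no other call count by over 1.5 times. The difference in mt- share was 1.40 percentage points with barcodes over 20%, -1.38 in epithelial or tumour-like cells and -0.85 to -0.042 with 1 library left out. The nuclear level differed by -0.194 per 10000 with those barcodes, by 19.3 as a median over cells, by -30.0 in epithelial or tumour-like cells and by -2.20 to 16 with 1 library left out. The log2 ratio differed by 0.39, -0.57 and, without clusters 4 and 17, -0.65, and by -0.44 to -0.13 with 1 library left out. The settings without clusters 4 and 17, with shared barcodes kept and with no scaling factors were chosen after seeing the data. Depth limits the whole libraries, whose classes hold as few as 24 cells, and the barcodes over 20% of whole KPC-3403, of which there were 27.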
